A study of Mus musculus with 211 samples.

Results

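The mitosis and chromosome segregation genes are 52 genes that act between entry into mitosis and the separation of the daughter cells. They were taken from a list of gene symbols and found in the deposited table by the Ensembl identifiers those symbols map to, and all 52 were present among 48709 genes. For each cell a mitosis score was counted, which is the number of members with at least 1 read in that cell, so that it can run from 0 to 52. The score was read in the 164 deposited cells that had 50000 or more reads on genes. The cells came from the cochleae of CD1 mice of either sex that carried the Lfng-EGFP bacterial artificial chromosome transgene Tg(Lfng-EGFP)HM340Gsat, in which regulatory sequence of Lfng drives green fluorescent protein (GFP), and no other allele or agent was named for any group. Mice were taken at postnatal day 60 (P60, 80 of the 164 cells) or postnatal day 120 (P120, 84 cells). GFP-positive cells were sorted and captured singly on Fluidigm C1 chips, and 4 mice were pooled for each capture. Reads were counted without molecular identifiers. Intervals below are binomial over the 164 cells, so they cover counting error only and leave out the spread between captures. Genes were read in the same cells, so an overlap of intervals is not a test between genes.

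There were 12 captures, 8 at P60 and 4 at P120, and a capture was the replicate in every test, since cells of 1 capture share their mice and chip. Of the P60 captures, 6 were sequenced only in the run named S047, while the other P60 captures (31 and 40) and all P120 captures (28, 32, 36 and 38) were split over the runs S059iso1 and S059iso2. Reads on genes ran from 64947 to 5361476 in the 164 cells with a median of 1080020, and from 41 with a median of 736455 over all deposited cells. The cochlear identity of the cells was checked against marker genes. Of the 164 cells, 6 held 10 or more reads of at least 3 of 15 cochlear supporting cell markers, and Sox2 had a read in 4 cells with at most 2 reads in any of them. At the same limit no cell carried the hair cell, endothelial, glial, fibroblast or erythroid lists, whereas 153 cells carried the mature neutrophil list, 99 the neutrophil secondary granule list, 41 the primary granule list and 17 the basophil and mast cell list. The cells are therefore called by their markers here and not by the sort gate.

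Entry into mitosis is driven by cyclin-dependent kinase CDK1 bound to cyclins A and B. Condensins and topoisomerase II then compact and untangle the chromosomes, kinetochores fasten them to spindle microtubules, the spindle checkpoint holds back the anaphase-promoting complex until all are attached, and kinesins and the centralspindlin complex complete separation and cytokinesis. Organ of Corti supporting cells of adult mammals are regarded as out of the cell cycle, while neutrophil precursors of the bone marrow divide at the stages that make primary granules (Elane and Mpo) and early secondary granules (Ngp and Camp), and mature neutrophils do not divide.

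Promoters of many mitotic genes carry a CHR element (cell cycle genes homology region), which binds the DREAM and MYBL2-FOXM1 complexes, and CCAAT boxes, which bind NF-Y. Both were searched in RefSeq promoter windows of GRCm38.p6 that run from 250 bases before to 50 bases after the start, and 44 of the 52 members matched, with 47 windows. The CHR letters searched were TTTGAA and TTCAAA and the CCAAT box letters CCAAT and ATTGG, so both strands were covered, and a match of each could share a letter at its end. The stretch before the start is printed for 3 members with both motifs and for Birc5, in which neither was found, because these 4 genes recur in the results. Capitals mark every match, whichever motif it belongs to, and each stretch is written 5′ to 3′ on the gene's own strand.
Cdk1, chr10:69352913-69353162, minus strand: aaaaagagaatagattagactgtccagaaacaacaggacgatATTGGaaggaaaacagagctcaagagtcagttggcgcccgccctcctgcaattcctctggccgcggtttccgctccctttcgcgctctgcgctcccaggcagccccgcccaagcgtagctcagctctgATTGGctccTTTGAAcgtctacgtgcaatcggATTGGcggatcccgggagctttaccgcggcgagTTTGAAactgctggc
Ccnb2, chr9:70421555-70421804, minus strand: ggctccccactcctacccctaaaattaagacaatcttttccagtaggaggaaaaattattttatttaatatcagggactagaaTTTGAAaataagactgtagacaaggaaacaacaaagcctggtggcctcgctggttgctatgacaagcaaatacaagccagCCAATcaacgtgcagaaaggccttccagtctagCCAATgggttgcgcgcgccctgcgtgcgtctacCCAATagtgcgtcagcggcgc
Top2a, chr11:99024190-99024439, minus strand: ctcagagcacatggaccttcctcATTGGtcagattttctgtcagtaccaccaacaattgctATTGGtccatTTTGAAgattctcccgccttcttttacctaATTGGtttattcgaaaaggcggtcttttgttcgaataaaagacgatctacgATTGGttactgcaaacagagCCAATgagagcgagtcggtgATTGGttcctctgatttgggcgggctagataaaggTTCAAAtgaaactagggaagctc
Birc5, chr11:117848987-117849236, plus strand: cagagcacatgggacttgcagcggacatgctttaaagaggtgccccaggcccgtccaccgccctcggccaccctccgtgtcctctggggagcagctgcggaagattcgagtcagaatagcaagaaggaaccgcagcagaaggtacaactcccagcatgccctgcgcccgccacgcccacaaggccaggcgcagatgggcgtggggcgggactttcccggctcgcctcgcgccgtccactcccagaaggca

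Counted from the start, the CHR letters began at -71 and -15 in Cdk1 and at -179 and -23 in Top2a. In Ccnb2 they began at -167 and again at 5, just past the printed stretch. The CCAAT letters were found 3 times in Cdk1, 3 times in Ccnb2 and 6 times in Top2a. Over all members, 68.1% of the 47 windows held both motifs, against 6.95% of the 32851 windows in the table. The CHR letters alone were in 78.7% of member windows and 17.9% of all windows, and the CCAAT letters in 76.6% and 37.4%. At least 2 CCAAT matches were present in 53.2% of member windows and 11.7% of all windows. Counted by gene, 65.9% of the 44 members and 7.97% of 27025 genes had both. A match is a description of these letters and not evidence of binding in these cells.

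The score was spread unevenly over the cells. Its median was 8 and its mean 15.2, with quartiles at 4 and 26 and a range from 0 to 51. There were 18 cells with a score of 0 to 2, 45 with 3 to 5, 35 with 6 to 10, 15 with 11 to 20, 18 with 21 to 30 and 33 with 31 or more. Most cells were thus at 10 or below, and the rest were spread over the whole range above it. Depth moved with the score, since Spearman's rank correlation over the 164 cells was 0.40 with reads and 0.81 with the number of genes detected. Every cell was then thinned at random to 50000 reads, so that depth was equal. After thinning, the rank correlation was 0.21 with the original read number but still 0.71 with the number of genes detected at full depth. The correlation between the scores before and after was 0.84. The thinned score had a median of 2, a mean of 9.21 and a highest value of 48. It was 0 to 2 in 85 cells, of which 30 held no member at all, and over 10 in 47 cells (28.7%).

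**Figure D1:**
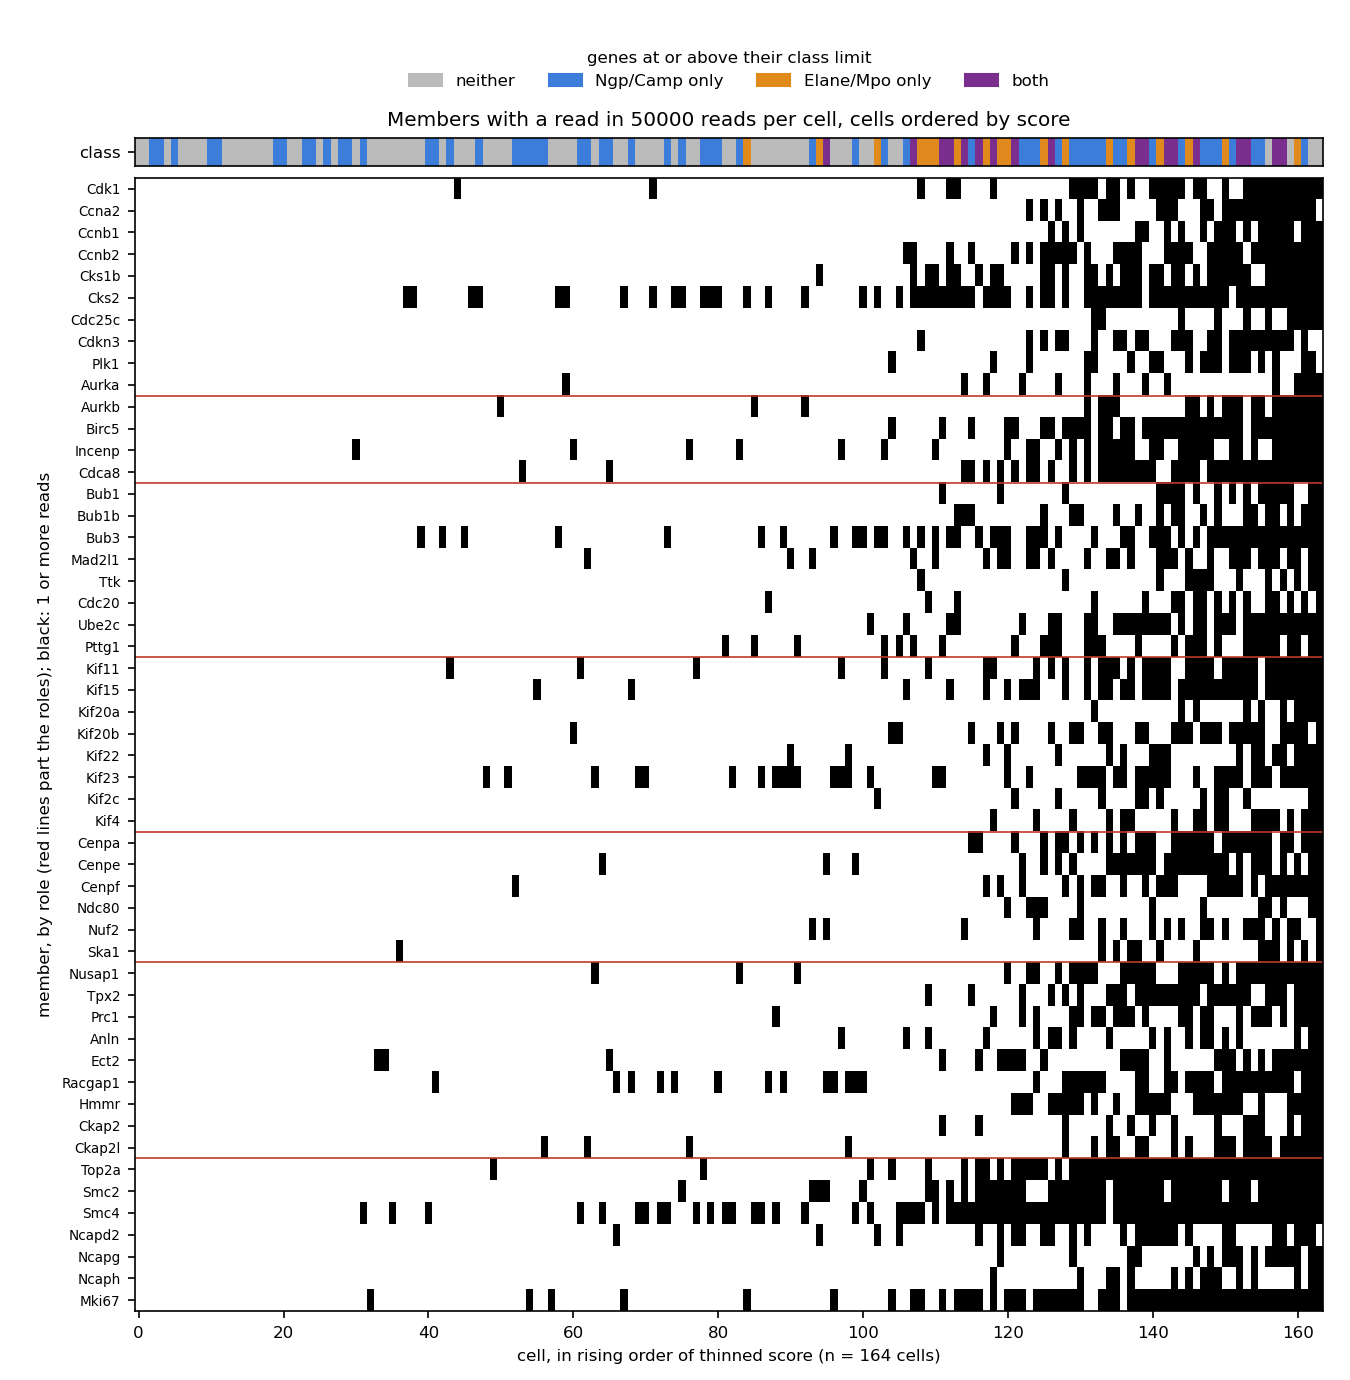
Members (vertical axis, by role) with at least 1 read in each of 164 cells after thinning to 50000 reads (horizontal axis, cells ordered by thinned score), with black for a read and the strip for the Elane/Mpo and Ngp/Camp class. The 47 cells with a thinned score over 10 form a dense block, and the 85 cells with 0 to 2 members are almost empty.

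The 47 cells with a thinned score over 10, a limit set after the distribution was seen, held 89% of all reads on members but 35% of the reads on genes. Members made up 0.483% of the reads on genes over all 164 cells. As the score defines these cells, the member shares in them are a description, given first for thinned counts. Smc4 had a read in 97.9% of the 47 cells and in 15.3% of the 85 cells with 0 to 2 members. The corresponding shares were 91.5% and 2.35% for Top2a, 87.2% and 5.88% for Mki67, and 85.1% and 1.18% for Smc2. Birc5 was read in 76.6% of the high cells and in none of the low ones at this depth, and in 12.9% of the low cells at full depth. At the other end, Kif20a was read in 21.3% and Cdc25c in 23.4% of the high cells, so that even there a cell showed only some of the members. At full depth, Cks2 was least restricted to the high cells, which held 48.9% of its reads, followed by Kif23 with 52.4%, Bub3 with 64.8% and Smc4 with 71.9%. By contrast, the high cells held 99.9% of Ccna2 reads. The median of the pairwise Spearman correlations of members over cells was 0.405, where the points share each cell's library.

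The high cells were also marked by what else they contained. Of the 47, 41 carried at least 3 mature neutrophil markers at 10 or more reads, 39 the secondary granule markers, 28 the primary granule markers and 11 the basophil and mast cell markers. B lineage, monocyte and cochlear supporting cell markers were each carried by 3 of them, and progenitor markers by 7. Of the 85 low cells, 83 carried mature neutrophil markers, 42 the secondary granule markers and 1 the primary granule markers. Carrying a list needs only 3 of its genes and does not give its level. The mature neutrophil list of 8 genes took a smaller share of the reads in the high cells, 7.04% against 13.9% in the low cells. The secondary granule list took 8.61% against 4.60%, and the primary granule list 1.39% against 0.00241%. High cells had a median of 4503 genes detected and low cells 1552. A cell could carry several lists, and the part of the number of genes in the score was not tested.

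The members are described next by role, each by the share of the 164 cells with a read at full depth. Among the CDK1, cyclin and mitotic kinase genes, Cks2, a small subunit that binds CDK1, was read in 53.7% of cells (88 cells, 95% exact binomial interval 45.7 to 61.5%). Cdk1 itself was read in 33.5% (26.4 to 41.3%) and Cks1b, the paralog of Cks2, in 31.7% (24.7 to 39.4%). Cdc25c, the phosphatase that activates CDK1, was the least detected of the group at 14% (9.1 to 20.3%). Per length, Cks2 was the most abundant of all members, at 321.6 RPKM (reads scaled for exon length and for depth) over the pooled cells, followed by the cyclin gene Ccnb2 at 83.1 and Cks1b at 61.8. Cdk1 stood at 16.8 RPKM. The group's 10 genes took 18.1% of the reads on members.

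The chromosomal passenger complex corrects faulty attachments and directs cytokinesis. Its scaffold gene Incenp was read in 36.6% of cells (29.2 to 44.5%), the survivin gene Birc5 in 34.8% (27.5 to 42.6%) and the borealin gene Cdca8 in 31.1% (24.1 to 38.8%), and these neighbours overlapped in their intervals. The kinase gene Aurkb was read in 22% (15.9 to 29.1%). Among the spindle checkpoint and anaphase-promoting complex genes, Bub3 was read in 45.1% of cells (37.4 to 53.1%), the ubiquitin-conjugating enzyme gene Ube2c in 33.5% (26.4 to 41.3%) and the securin gene Pttg1 in 28.7% (21.9 to 36.2%). Ttk, the checkpoint kinase gene, was the lowest at 15.9% (10.6 to 22.4%). The interval of Bub3 overlapped that of Ube2c, and the median of all 8 genes of the group was 25%.

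Of the 8 kinesin genes, Kif23, the motor of centralspindlin, was read in 40.9% of cells (33.3 to 48.8%), Kif15 in 36.6% and Kif11, which pushes the spindle poles apart, in 34.1%. Kif20a, needed in cytokinesis, was read in 13 cells (7.93%, 4.29 to 13.2%), the lowest share of all 52 members. Of the centromere and kinetochore genes, the kinetochore motor gene Cenpe was read in 34.8%, the centromeric histone gene Cenpa in 31.7% and Nuf2 in 26.8% of cells. Ndc80 was read in 16.5%, although its product pairs with that of Nuf2 in the same complex, and the intervals overlapped (11.1 to 23% and 20.2 to 34.3%). Among the spindle and cytokinesis genes, Racgap1, the partner of Kif23 in centralspindlin, reached 40.9%, in as many cells as Kif23 itself (67), ahead of Nusap1 at 32.9% and of Tpx2 and Hmmr at 31.7%. Ckap2 was the lowest at 20.7%.

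The chromosome structure and surface genes were the most widely read group. Smc4, the condensin ATPase gene, had a read in 67.1% of cells (59.3 to 74.2%), Mki67, which encodes the Ki-67 coat of mitotic chromosomes, in 57.9% (50 to 65.6%) and Top2a, topoisomerase II alpha, in 47.6% (39.7 to 55.5%). Smc2, the other condensin ATPase gene, was read in 39.6%, while the condensin I subunit gene Ncaph was read in 15.9%. The 7 genes took 26.6% of the reads on members, and a single cell held 15097 reads of Top2a. After thinning, the median share of cells per member was 30.5% in this group, 22.6% for the passenger complex and 14.6 to 16.5% for the other groups. Mki67 is also read outside the high cells, since 35.3% of the 85 low cells had at least 1 read of it at full depth, as 44.7% had of Smc4 and 28.2% of Cks2. Where low cells had Cks2, the median was 168.5 reads, and without molecular identifiers the number of molecules behind them is unknown.

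The likeness of single genes to the thinned score was taken as Spearman's rank correlation over the 164 cells for 6411 genes with a read in at least 10 of them, and is a description. Top2a had rank 1 at 0.77, Smc4 and Smc2 ranks 4 and 6 at 0.74, and Mki67 and Birc5 ranks 8 and 9 at 0.71. Members are part of the score, so their place is partly built in. Of the 52, 20 were among the first 100 genes and 41 among the first 500, while Aurka stood at rank 1317 with 0.35. The 10 other genes most like the score were Ptma and Tubb5 at 0.75, Tagln2 at 0.74, Ppia and Tuba1b at 0.71, the replication genes Pclaf and Rrm2 at 0.70, Gm9800 and Hsp90aa1 at 0.69 and Tmem256 at 0.67. Prothymosin, tubulins, cyclophilin and the HSP90 chaperone are broadly expressed proteins, and the cells share depth and gene number. The most negative genes were Retnlg at -0.58, Fth1 at -0.56, Cxcl2 at -0.55, Tyrobp at -0.52 and Trem1 at -0.51, of which Retnlg, Cxcl2 and Trem1 are expressed in mature neutrophils.

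Other cell cycle genes were taken from 5 lists. Of the 20 S phase and replication genes, Mcm4, a helicase subunit gene, was read in 50.6% of cells and Rrm2, of ribonucleotide reductase, in 43.3%. Of the 16 regulators of mitotic transcription, the E2F partner gene Tfdp1 was read in 52.4% and E2f8 in 25%. Foxm1, a main activator of CHR-containing genes, was read in 21.3% of cells (35 cells) and Mybl2 in 8.54% (14 cells), both below most members. Of 12 cohesin genes, Stag2 was read in 68.3% and Smc1a in 54.3%, and of 15 core genes of the anaphase-promoting complex, Anapc11 in 38.4% and Anapc5 in 37.2%. Of the 12 regulators of the G1 phase, Cdk6 was read in 57.9% and the inhibitor gene Cdkn1b in 57.3%.

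To set the members against the neutrophil granule genes, each cell was called Elane/Mpo-positive at 100 or more CPM (reads scaled to a fixed library total) of Elane and Mpo together, and Ngp/Camp-positive at 1000 CPM or more of Ngp and Camp together. None of these 4 genes is a member. There were 36 Elane/Mpo-positive cells, with a median of 10244.5 CPM against 3.61 CPM in the negative cells, and 8 cells lay within 2-fold of the limit. There were 76 Ngp/Camp-positive cells (median 47489.5 against 51.4 CPM), with 13 cells within 2-fold of that limit. Such classes are ranges of a level and not cell types. Together they left 70 cells with neither, 58 with Ngp/Camp only, 18 with Elane/Mpo only and 18 with both.

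**Figure D2:**
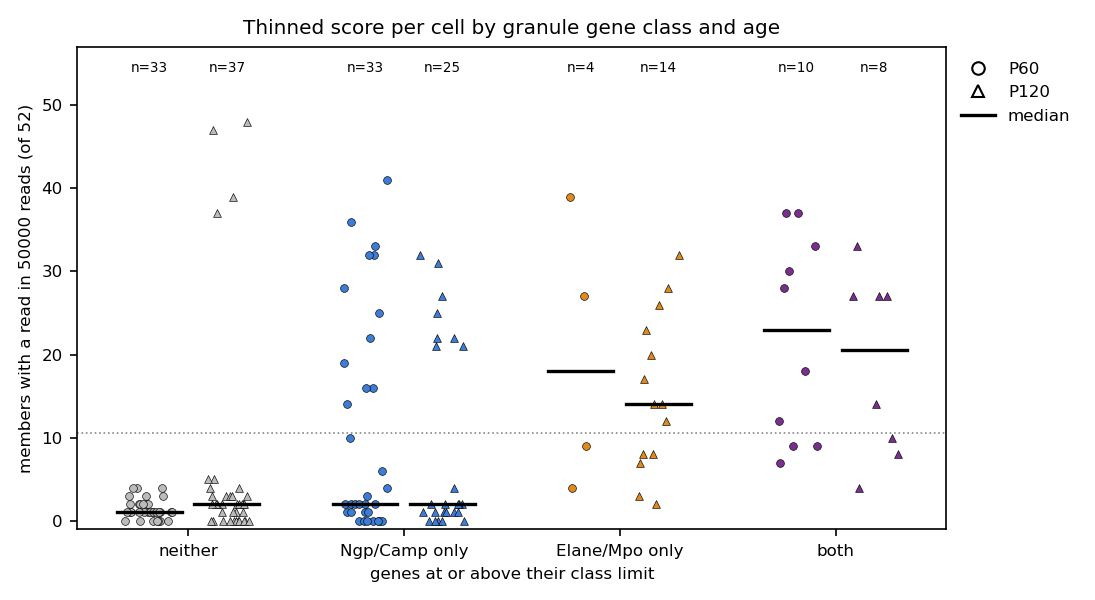
Thinned mitosis score (number of 52 members with a read in 50000 reads, vertical axis) of each of 164 cells, by Elane/Mpo and Ngp/Camp class and age (horizontal axis), with bars for medians and a dotted line just above 10. Scores over 10 were found in 4 of 70 cells with neither pair of genes, 20 of 58 with Ngp/Camp only, 11 of 18 with Elane/Mpo only and 12 of 18 with both.

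High scores were most frequent among Elane/Mpo-positive cells. The thinned score was over 10 in 23 of 36 positive cells (63.9%) and in 24 of 128 negative cells (18.8%), with medians of 15.5 and 2. No Elane/Mpo-positive cell had a thinned score of 0, against 30 negative cells. Of the Ngp/Camp-positive cells, 32 of 76 (42.1%) were over 10, against 15 of 88 negative cells (17%), with medians of 6.5 and 2. Cells of 1 capture are not replicates, so these shares are a description. The rank correlation of the thinned score with the summed level of Elane and Mpo was 0.54, and with that of Ngp and Camp 0.32. Elane/Mpo-positive cells also had more genes detected, with medians of 4792 and 1809, and lower scores of GFP intensity in the deposited cell record, with medians of 175 and 377.5. Basophil and mast cell markers were carried by 13 of the 36 positive and 4 of the 128 negative cells. The part of these in the score was not tested. The 4 high cells with neither pair of genes were all P120 cells of run S059iso1, 3 from capture 28 and 1 from capture 32. They had thinned scores of 48, 47, 39 and 37, and 3 of the 4 carried 8 or 9 of the 9 B lineage markers. Other lists were met as well. The primary granule, secondary granule and basophil and mast cell lists were each carried by 2 of the 4, and the T and NK and progenitor lists by 1 each. One cell with 8 B lineage markers also held 5 of the 6 basophil and mast cell markers. Whether any was a doublet was not tested.

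The same order of classes was seen in the medians over members, though not in each member. The median over members of the share of cells with a read after thinning was 5.71% in cells with neither, 19% with Ngp/Camp only, 27.8% with Elane/Mpo only and 38.9% with both. Members with a higher share than in cells with neither numbered 50 of 52 in the Ngp/Camp only cells, 50 in the Elane/Mpo only cells and 51 in cells with both. Elane/Mpo only was above Ngp/Camp only for 44 members. Cells with both were above Elane/Mpo only for 36 members, below it for 10 and equal for 6. The members share these cells, so the counts are not independent. The share of all genes that were higher was not counted, so the counts have no background. Genes detected at full depth also differed, with medians of 1518 in cells with neither, 2478.5 with Ngp/Camp only, 4901.5 with Elane/Mpo only and 4765.5 with both.

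**Figure D3:**
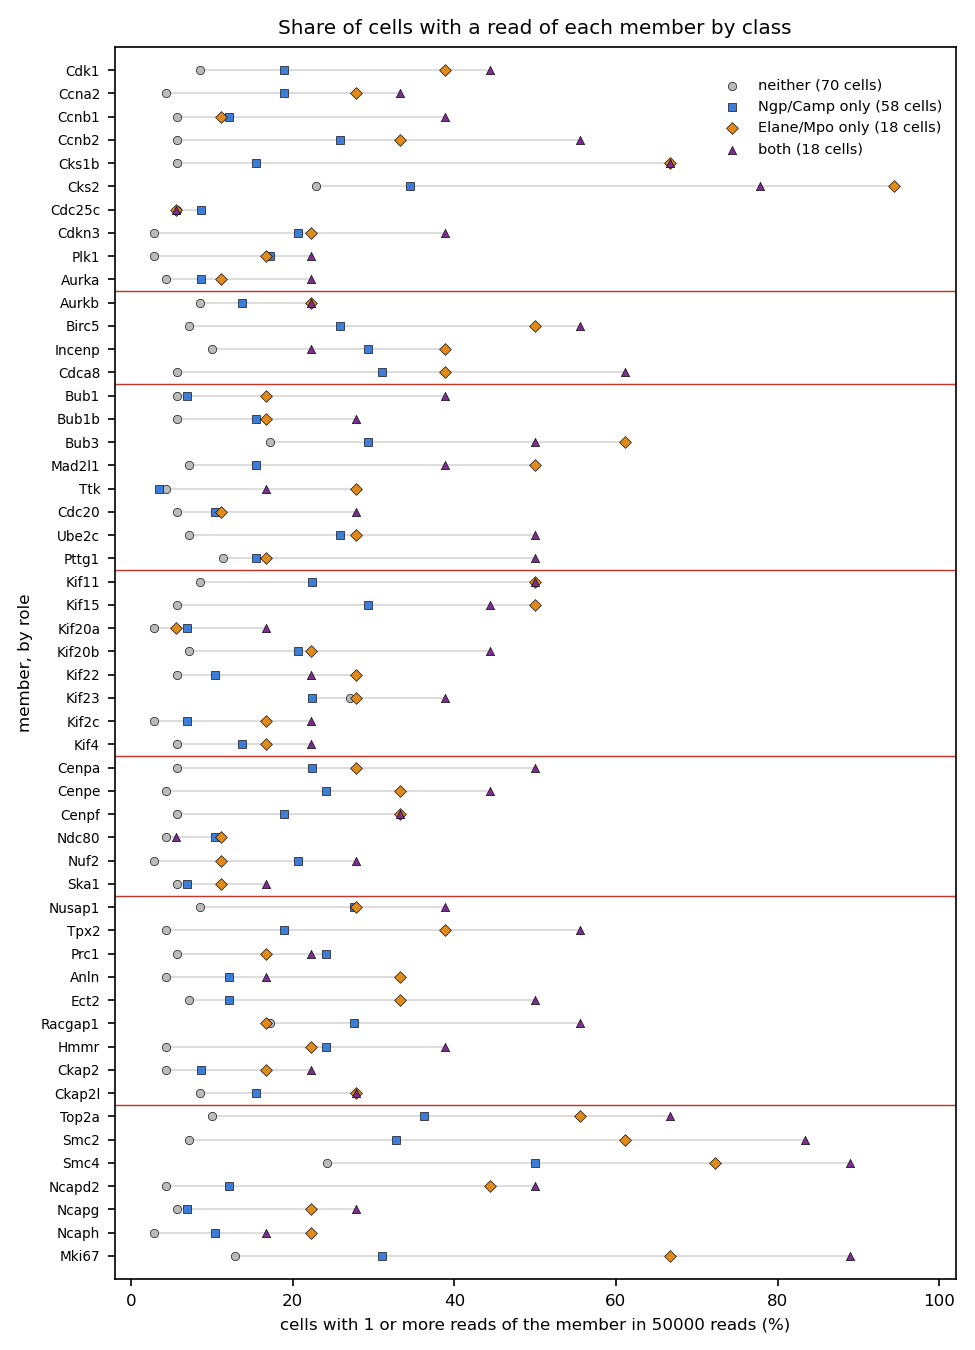
Share of cells with a read of each of the 52 members after thinning (percent of cells), for the 4 classes set by Elane/Mpo and Ngp/Camp. The medians over members were 5.71% with neither, 19% with Ngp/Camp only, 27.8% with Elane/Mpo only and 38.9% with both.

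Single members departed from this order. Top2a was read after thinning in 7 of 70 cells with neither, 21 of 58 with Ngp/Camp only, 10 of 18 with Elane/Mpo only and 12 of 18 with both, and Mki67 in 9, 18, 12 and 16 cells of the same classes. Both thus rose in share along the order. Cks2 was read in 16, 20, 17 and 14 cells, which puts it highest in the Elane/Mpo only cells, where a single cell lacked it. Cks1b was read in 4, 9, 12 and 12 cells, a large step between the Ngp/Camp only and the Elane/Mpo only cells. Kif23 was read in 19, 13, 5 and 7 cells, so that its share in cells with neither, 27.1%, was the highest of any member there. Racgap1 was read in 12, 16, 3 and 10 cells and was lower in Elane/Mpo only cells than in Ngp/Camp only cells. Foxm1 was read in 1, 9, 1 and 7 cells and Mybl2 in 0, 0, 3 and 2, so that these activators differed in where they were found, in few cells each.

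Levels were then compared over captures, with counts summed by capture and class. In such sums fewer expressing cells and less RNA per cell cannot be told apart. Captures 28, 32, 38, 40 and 9c held at least 3 cells of both Elane/Mpo classes. Pooled over runs, the mean thinned score in each of the 5 was higher in the positive cells, with 18.5 against 11.9 in capture 28, 11.9 against 8.86 in 32, 19.7 against 4.44 in 38, 13.4 against 12.1 in 40 and 27.5 against 9.21 in 9c. Class and run were tied, however, since every positive cell of captures 32, 38 and 40 was sequenced in S059iso1. Within S059iso1 the mean was lower in the positive cells in capture 28 (10.5 in 2 cells against 44.7 in 3). It was also lower in 32 (11.9 in 7 against 33.3 in 3) and 40 (13.4 in 7 against 16.7 in 10). In 38 it was higher (19.7 in 3 cells against 10.4 in 7). The 3 negative cells of capture 28 in this run were all high cells with neither pair of genes, as was 1 of the 3 of capture 32. Within S059iso2 only capture 28 held both classes, at 20.1 against 5.75, and capture 9c was sequenced in S047 alone. The higher score of positive cells thus held in 3 of the 6 strata of capture and run, some of which held only 2 or 3 cells of a class. The summed level of the members was higher in the positive cells in 2 of the 5 captures. It was 7544 against 6791 CPM in capture 28, 4086 against 8635 in 32, 6788 against 4434 in 38, 2827 against 4289 in 40 and 7795 against 8752 in 9c. Part of the negative sums came from the 3 cells with B lineage markers, 2 in capture 28 and 1 in capture 32. Without them the negative cells had 3846 CPM in capture 28 and 4382 CPM in 32, so that the positive cells stayed higher in capture 28 and lower in 32. Taken per cell, the median share of reads on members was 0.434% in positive and 0.0355% in negative cells.

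In the fit of all 7519 genes with edgeR's quasi-likelihood test, capture as a block and Benjamini-Hochberg adjustment, none of the 52 members was called at an adjusted p under 0.05, where 0.984% of all genes were called. At an unadjusted p under 0.05, 6 members passed, all lower in the positive cells, where 12.9% of all genes passed in either direction and 7.5% were lower. DESeq2 on the same sums called 14 members, all lower, where 14.5% of all genes were called lower. The members' median log2 difference was -1.27 and that of all genes 0.09. With scaling by library size alone these were -0.46 and 0.89, so the members' median lay below that of all genes under both scalings. With a limit of 1000 CPM, over 4 captures, the medians were -2.54 and -0.15. There 13 of 51 members were lower at an unadjusted p under 0.05, which 841 of 7897 genes passed in either direction. With capture and run as the block the medians were -1.98 and 0.34, with 7 of 51 members lower, where 578 of 6428 genes passed. The direction turned when a positive cell was defined by 10 reads of Elane and Mpo, a limit that deeper cells reach at a lower CPM. The medians were then 3.51 for the members and 1.70 for all genes. Of 52 members, 51 were above 0. At an unadjusted p under 0.05, 10 were higher and 1 lower, where 1449 of 6621 genes passed in either direction. Without the B lineage cells the medians were -0.72 and 0.41. There 3 members were lower at an unadjusted p under 0.05, which 1079 of 7205 genes passed in either direction. Within S059iso1 alone the medians were -2.18 and 0.56, with 6 members lower, where 351 of 6528 genes passed. None was called by edgeR under these alternatives. The 14 members were Ccnb1, Cdc25c, Cdkn3, Ube2c, Kif20a, Kif23, Kif2c, Cenpa, Cenpf, Nusap1, Prc1, Racgap1, Hmmr and Top2a.

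Kif23 had the smallest p. Its level in positive against negative cells was 8.75 against 119 CPM in capture 28, 21.2 against 142 in 32, 22.5 against 355 in 38, 0.306 against 32.2 in 40 and 30.6 against 365 in 9c. It was lower in all 5 captures. The groups did not overlap, which held for 1 of the 52 members, and the share of all genes without overlap was not counted. The log2 difference was -4.85 ± 1.26 (SE), with an adjusted p of 0.101 by edgeR's quasi-likelihood test. With counts thinned to 50000 reads per cell the same test gave an adjusted p of 0.0300. There 1 of 47 members and 2.48% of all genes were called lower. Ube2c was 31.1 against 222 CPM in capture 28, 1.19 against 428 in 32, 53.9 against 155 in 38, 91.4 against 304 in 40 and 206 against 279.5 in 9c. It too was lower in every capture, though the groups overlapped, with a log2 difference of -3.35 ± 1.23 and an edgeR adjusted p of 0.262. Cdc25c was 0.783 against 90.3 CPM in capture 28, 0.0596 against 11.6 in 32, 40.1 against 335 in 38, 0.102 against 140 in 40 and 101.8 against 14.1 in 9c. Capture 9c ran against the other 4, and the log2 difference was -6.39 ± 2.35 (edgeR adjusted p 0.262).

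Top2a had a log2 difference of -1.82 ± 0.74 and Birc5 of -1.76 ± 1.02, and Birc5 was lower in all 5 captures. Mki67 at -0.61 ± 0.81 (0.19 with scaling by library size alone), Cdk1 at -1.33 ± 1.36 and Cks2 at 0.03 ± 0.79 each differed by less than 1 SE. Cks2 was nevertheless higher in the positive cells in all 5 captures, as was Kif20b. In total 2 members were higher in every capture, where 13.2% of all genes were, and 3 were lower in every capture (Birc5, Ube2c and Kif23), where 5.6% of all genes were. Under the limit of 10 reads the directions turned, with Top2a at 2.04, Cdk1 at 7.85, Mki67 at 2.17 and Ube2c at 5.20.

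The second comparison was of Ngp/Camp-positive with negative cells, in the 7 captures 28, 32, 38, 19c, 31, 40 and 9c. The mean thinned score was higher in the positive cells in 6 of 7, with 13.2 against 8.53 in capture 32, 13.1 against 2.62 in 38, 4.0 against 1.25 in 19c, 11.5 against 1.5 in 31, 13.8 against 4.33 in 40 and 19.1 against 8.6 in 9c. In capture 28, which holds 3 of the 4 high cells with neither pair of genes, it was 10.9 against 18.7. These means pool the runs, and class and run were partly tied. Positive cells were 7 of 8 in S059iso1 and 3 of 10 in S059iso2 in capture 31, but 0 of 5 and 17 of 26 in capture 28. They were 15 of 17 and 4 of 5 in capture 40, 3 of 10 and 3 of 11 in 32, and 4 of 10 and 4 of 11 in 38. Of 6152 genes tested, edgeR's quasi-likelihood test called 0.293% and none of the 50 members that passed the filter on low counts, which Ttk and Kif20a did not. At an unadjusted p under 0.05, 7 members passed, all higher in the positive cells, where 4.78% of all genes passed in either direction and 3.62% were higher. DESeq2 called 16 members, all higher, where 7.69% of all genes were called higher. The members' median log2 difference was 2.68 and that of all genes 0.39, or 2.40 and -0.01 with scaling by library size alone. With capture and run as the block, 22 members passed the filter and the medians were 2.04 and 0.53. Of these members 1 was higher at an unadjusted p under 0.05 by edgeR, where 204 of 3301 genes passed in either direction.

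Birc5 was higher in the positive cells in 7 of 7 captures. Its level was 279 against 207 CPM in capture 28, 187 against 87.1 in 32, 138 against 25.4 in 38, 26.8 against 0 in 19c, 63.9 against 0.451 in 31, 38.1 against 0 in 40 and 402.5 against 67.2 in 9c. The log2 difference was 4.19 ± 1.89 with an edgeR adjusted p of 0.952. Kif20b had the smallest p, with 1188 against 0 CPM in capture 19c, 123 against 0 in 31, 174 against 0 in 40, 58.6 against 0.0789 in 38 and 226 against 34.4 in 28, but 2.08 against 2.44 in 32 and 228 against 329.6 in 9c. It was higher in 5 of the 7, and the log2 difference of 7.93 ± 2.70 (edgeR adjusted p 0.418) depends on the 3 negative sums at 0. Cenpa followed at 8.28 ± 3.38 (edgeR adjusted p 0.808) and Cdkn3, a phosphatase that acts on CDKs, at 7.68 ± 3.19 (edgeR adjusted p 0.834). Smc4 was also higher in 7 of 7 captures, with a log2 difference of 1.97 ± 1.24, which with Birc5 makes 2 members, where 1.54% of all genes were higher in every capture. Mki67 at 1.93 ± 1.40, Top2a at 2.10 ± 1.70 and Cdk1 at 3.61 ± 2.25 were higher by less than 2 SE. Among the regulators of mitotic transcription, DESeq2 called Foxm1 and E2f7 higher, of 8 tested.

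Whether the Elane/Mpo difference itself changed with age was tested as an interaction, over the same 5 captures, 3 at P120 (28, 32 and 38) and 2 at P60 (40 and 9c). edgeR's quasi-likelihood test called none of the 52 members, where 0.00864% of 11577 genes were called. At an unadjusted p under 0.05 only Ttk passed, at -10.61 ± 4.37 (edgeR adjusted p 1.0), where 2.05% of all genes passed. DESeq2 called Ttk lower and Ckap2 higher, at -10.62 and 11.07, where 4.12% of all genes were called.  Kif4 had a value of -7.33 ± 5.19.

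The ages were compared next. The mean score per capture at P120 was 21.8 in capture 28, 17.4 in 32, 6.18 in 36 and 11 in 38, a mean of 14.1 ± 6.90 (SD, n = 4). At P60 it ran from 2.29 to 21.8 with a median of 8.57, a mean of 10.5 ± 8.41 (SD, n = 8). The ages overlapped, and the difference of 3.57 was smaller than either SD. It was 1.46 after thinning. Leaving out 1 capture moved it between 0.991 (without capture 28) and 6.21 (without capture 36). In thinned counts, 26 of 84 P120 cells (31%) and 21 of 80 P60 cells (26.2%) were over 10.

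edgeR's quasi-likelihood test on counts summed per capture called none of the 52 members between P120 and P60, where 0.0848% of 8255 genes were called. None had an unadjusted p under 0.05, which 4.69% of all genes had, and DESeq2 called none, with 0.11% of all genes called. The members' median log2 difference was 0.72 and that of all genes 0.28. Nuf2 had the smallest p, with 53.8, 3.45, 0.221 and 158 CPM in the P120 captures 28, 32, 36 and 38, and from 0 to 21.7 CPM with a median of 2.11 at P60. The log2 difference was 3.43 ± 2.17 (edgeR adjusted p 1.0). Captures 32 and 36 lay within the P60 range.

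Mki67 was 345, 434, 232 and 127 CPM in the P120 captures 28, 32, 36 and 38, and ran from 0 to 674 CPM with a median of 80.8 at P60. Its log2 difference was 1.28 ± 1.56. In capture 36 it was well above 0, where Top2a was 0.664 CPM, Cdk1 0.111 CPM and Birc5 0.221 CPM. Top2a was 484, 708 and 325 CPM in captures 28, 32 and 38, and ran from 0 to 1486 CPM at P60 with a median of 84.4, a log2 difference of 0.56 ± 1.53. Cdk1 (79, 129 and 162 CPM in the same P120 captures, from 0 to 272 CPM at P60) differed by 0.96 ± 1.86. Birc5 (245, 115 and 83.3 CPM, from 0 to 388 CPM at P60) differed by 0.47 ± 1.81. At P60, 2 captures were at 0 for Mki67, Top2a and Cdk1, and the spread between captures of 1 age exceeded the difference between ages for all 4 genes. Ect2, which acts in cytokinesis, had a log2 difference of 2.66 ± 2.07 and the checkpoint target gene Cdc20 of 2.67 ± 2.13, each with 4 of 8 P60 captures at 0.

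Age was tied to the sequencing run, since all cells of S047 were P60. With the batch as a term, or within the captures of the S059 runs alone, no member was called either. In the latter the log2 difference was 0.71 for Mki67 and 0.77 for Top2a. Within run S059iso1 alone they were 0.65 and 0.99, with a median of 0.64 over the 52 members. Within run S059iso2 alone, where 21 members were tested, they were -0.13 and -0.32.

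**Figure D4:**
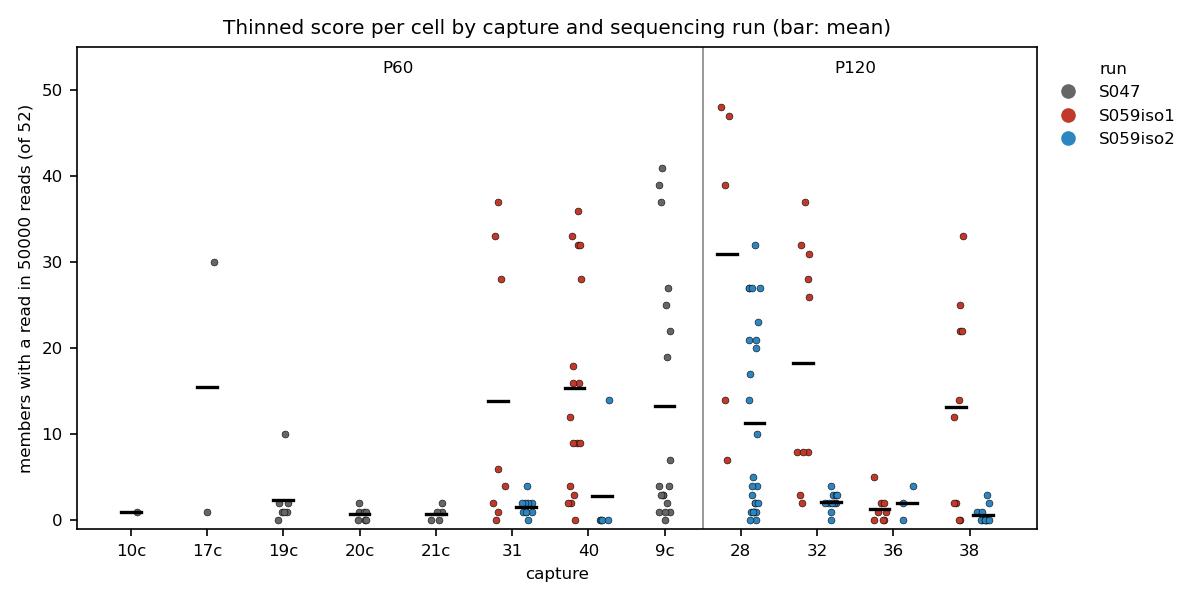
Thinned mitosis score (members with a read in 50000 reads, vertical axis) of each of 164 cells by capture (horizontal axis), coloured by sequencing run, with bars for the mean of each capture and run. Captures of both ages hold cells at 0 and cells over 10, and within captures 28, 31, 32, 38 and 40 the S059iso1 cells have the higher mean.

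The runs themselves differed within captures, a comparison added after the values were seen. Cells of the same 6 captures were sequenced in S059iso1 and S059iso2, which here stand for the names in the deposited record and nothing more. The mean thinned score in S059iso1 against S059iso2 was 31 against 11.3 in capture 28, 18.3 against 2.18 in 32, 13.2 against 0.636 in 38, 13.9 against 1.6 in 31, 15.4 against 2.8 in 40, and 1.38 against 2.0 in 36. It was higher in S059iso1 in 5 of 6 captures, of both ages. The score at full depth had a mean of 23.5 in S059iso1, 10.5 in S059iso2 and 10.75 in S047. The median reads per cell were 1809760 in S059iso1 and 946831 in S059iso2, and the thinned scores above have this gap in reads removed. Genes detected at full depth also differed, with medians of 3726 in S059iso1 and 2126.5 in S059iso2. The part of the number of genes in the run difference was not tested. Elane/Mpo-positive cells were spread unevenly as well, with 2, 7, 0, 3, 2 and 7 in S059iso1 for captures 28, 32, 36, 38, 31 and 40, and in S059iso2 with 10 in capture 28 and none in the others. The part of the class in the run difference was not tested, and the run and the choice of cells sent to it cannot be told apart.

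Of 5700 genes, edgeR's quasi-likelihood test with capture as a block called 0.0526% between the S059 runs and none of the 48 members that passed the filter, which Cdc25c, Plk1, Ttk and Kif20a did not. At an unadjusted p under 0.05, 31 members passed, all higher in S059iso1, where 17.7% of all genes passed and 16% were higher, and DESeq2 called 35 members higher, where 25.1% of all genes were called higher. The median log2 difference of the members was 7.70 and that of all genes 2.10, or 8.55 and 2.79 with scaling by library size alone. Mad2l1, a checkpoint protein gene, was 572 against 2.38 CPM in capture 28, 231 against 0.0954 in 32, 0.283 against 0 in 36, 109.6 against 0 in 38, 17.4 against 0.0572 in 31 and 149.5 against 0 in 40. It was higher in S059iso1 in all 6, with a log2 difference of 9.72 ± 3.03 (edgeR adjusted p 0.141). Bub1 and Ccnb2 had differences of 10.14 ± 3.24 and 10.21 ± 3.28, each with an edgeR adjusted p of 0.141. Top2a differed by 5.86 ± 2.83, Birc5 by 7.78 ± 3.28 and Mki67 by 3.28 ± 2.43, while Smc4 differed by 0.64 ± 1.99. In all, 18 of the 48 were higher in S059iso1 in every capture, where 10.3% of all genes were.

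**Figure D5:**
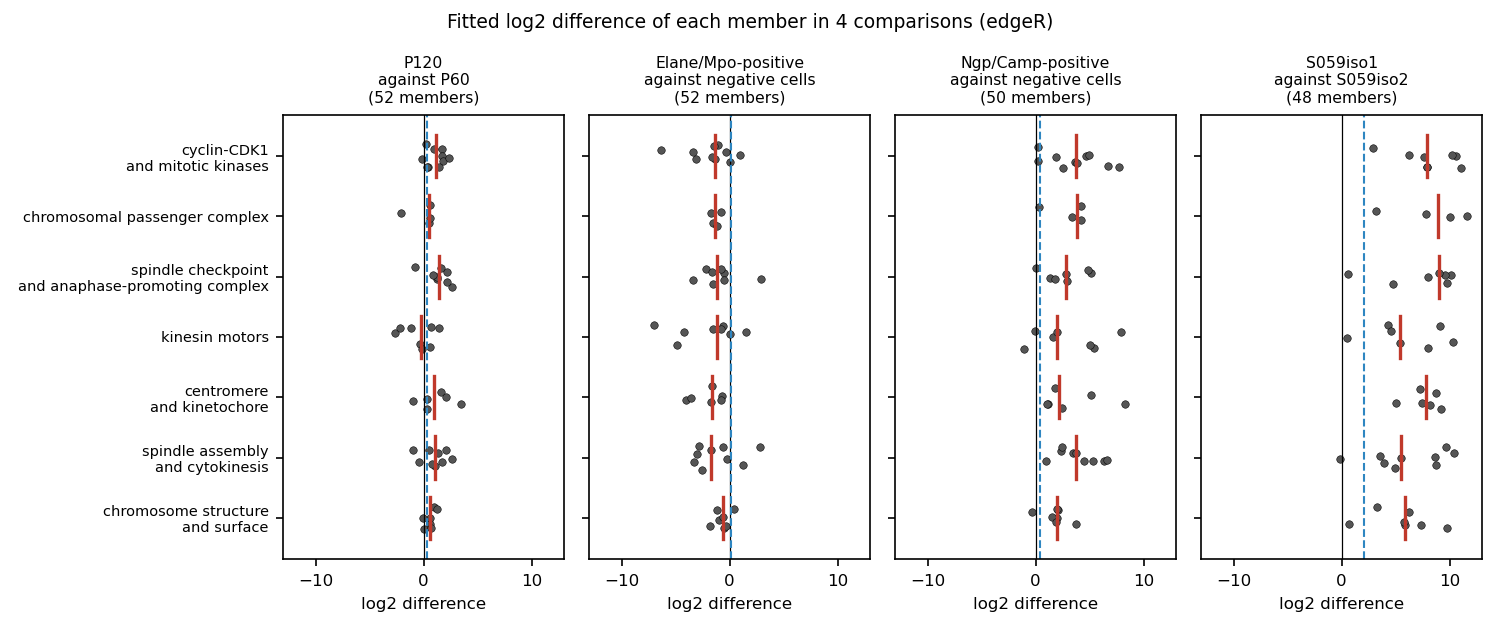
Fitted log2 differences of the members (points, by role) in 4 comparisons of counts summed per capture, with red bars for the median of each role, a dashed blue line for the median of all genes and a black line at 0. The members' median was 0.72 for P120 against P60, -1.27 for Elane/Mpo-positive against negative, 2.68 for Ngp/Camp-positive against negative and 7.70 for S059iso1 against S059iso2, with medians of all genes of 0.28, 0.09, 0.39 and 2.10.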

How the data were processed

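Single-cell libraries were made on the Fluidigm C1 from cells of 12 captures, and the authors aligned reads to GRCm38 with STAR. The deposited table holds their raw read counts, with no molecular identifiers, for 48709 genes and 92 spike-ins, which were left out here. Of the genes, 48349 identifiers matched a symbol. The authors removed outlier and endothelial cells before deposit. Capture, run and the deposited GFP intensity score came from the authors' cell record; the score has no stated unit. No pair of cells had equal counts, and no cell's stage differed from its label.

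The members and lists were chosen with earlier results of these data known. Cells with 50000 or more reads were kept. The sort had gated on scatter, but no doublet caller was run, so doublets that passed the sort or formed on the chip were not tested for. Scores were counted at full depth and after thinning to 50000 reads (seed 7). Sums of counts over the cells of a capture, split by class where both classes held 3 or more cells, were fitted over all genes with edgeR 4.0.16 in R 4.3.3 (TMM, filterByExpr, quasi-likelihood F test, Benjamini-Hochberg at 0.05), with DESeq2 1.42.0 as the alternative. The test was also run on simulated counts with equal library sizes and no differences between captures. The real sums differ in both, so its error rates on them were not measured. Nothing says that captures shared no animals, so p-values measure the spread between captures. Named members were, in each role, the 3 with the highest share of cells and the lowest, then Mki67, Top2a, Cdk1, Birc5, the 3 with the smallest p in each fit, and members singled out after their values were seen. Gene lengths and positions came from GENCODE on GRCm38, promoters from RefSeq GRCm38.p6. Python 3.11.15 with numpy 2.4.6, pandas 2.3.3, scipy 1.17.1 and matplotlib 3.10.9 was used.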

Additional observations from a re-analysis of the deposited data

Results flagged for a closer look

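In 34 groups of captures examined for a value far from the rest, 7 had one, where chance alone gives about 1 in 20. Capture 28 accounted for 4 of them. In run S059iso1 its members took 24014 CPM, against 8654.5 CPM in the next capture. In run S059iso2 they took 4268 CPM against 1310 CPM in the next, and the mean thinned score there was 11.3 against 2.8. In Ngp/Camp-negative cells the mean thinned score of capture 28 was 18.7 against 8.6 in the next capture. This capture holds 3 of the 4 high-score cells with neither Elane/Mpo nor Ngp/Camp.

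The other 3 were levels of single members among the P60 captures. Mki67 was 674 CPM in capture 9c, against 244 CPM in the next. Top2a was 1486 CPM in capture 17c, against 601 CPM in the next, and Cdk1 was 272 CPM there, against 70.6 CPM. Capture 17c had 2 cells deep enough to be used, with scores of 5 and 33.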

How the results depend on the processing

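The numbers of members called and the difference in score between ages gave 91 values under the alternatives. Of these, 86 were within 1.5 times the number called, or, for the score, moved by less than 1 SD between captures. As the number called was 0 in each of the 5 comparisons, staying within that range meant 0 again. It therefore says little about the size or direction of differences. In the Elane/Mpo comparison the members' median log2 difference was -2.54 with a limit of 1000 CPM and 3.51 with a limit of 10 reads. The other 5 were from DESeq2, with 14 members in the Elane/Mpo comparison, 16 in the Ngp/Camp comparison, 2 in the interaction and 35 between the S059 runs, and counts thinned to 50000 reads, with 1 member in the Elane/Mpo comparison. The cause was not tested. Without the replicate block (capture), 0 members were called in the Elane/Mpo, Ngp/Camp and run comparisons, as with it. For age no paired analysis was possible because each capture belongs to 1 age. Leaving out the cells with B lineage markers, or keeping only run S059iso1, alternatives chosen after seeing the data, left 0 members called in the Elane/Mpo comparison. With each capture left out in turn, 0 to 0 members were called by edgeR in the 5 comparisons, and the difference in score ran from 0.991 to 6.21.

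For named members 516 values were recomputed. In 478 the direction and the side of the threshold were kept, 18 came past the threshold, and 20 turned direction. Between P120 and P60, log2 differences in Elane/Mpo-positive cells alone were -0.45 for Cdc20, -0.12 for Mki67, -1.16 for Top2a, -1.08 for Cdk1 and -0.60 for Birc5. In run S059iso2 alone they were -0.13 for Mki67 and -0.32 for Top2a, and Birc5, when single captures were dropped, had values from -0.090 (without capture 28) to 1.17. In the Elane/Mpo comparison, a limit of 10 reads gave 5.20 for Ube2c, 3.81 for Cdc25c, 2.17 for Mki67, 2.04 for Top2a, 7.85 for Cdk1 and 0.99 for Birc5, and library size alone gave 0.19 for Mki67. In the interaction, Top2a was -1.03 with thinned counts, -0.061 with library size alone, and from -1.20 (without capture 40) to 1.61 with each capture left out, with -0.13 without capture 28, and Birc5 was -0.48 with thinned counts.

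With 2 to 8 captures a group and many sums near 0, differences of several log2 units carried standard errors above 1. A member without a read was not detected at that cell's depth, which does not show that it was absent.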

Other observations

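Other cell cycle genes also differed in how often they were read in Elane/Mpo-positive and negative cells. After thinning to 50000 reads, Rrm2 was read in 72.2% of the 36 positive and 14.1% of the 128 negative cells, and Mcm4 in 61.1% and 18%. Mcm5, chosen after its values were seen, was read in 77.8% and 7.03%. Among the regulators of mitotic transcription, Tfdp1 was read in 80.6% and 20.3% and E2f8 in 41.7% and 8.59%. Cdk6, a kinase of the G1 phase, was read in 88.9% and 16.4%, a wider gap than for the inhibitor gene Cdkn1b at 44.4% and 35.2%. The cohesin gene Stag2 was read in 63.9% and 35.9%. The shares pool cells of several captures and are given without a test, and the positive cells had more genes detected.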
